A study of Mus musculus with 96 samples.

Results

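Neuronal cytoskeleton genes were examined in muscle satellite cells as a set of 7: the intermediate filament genes Nefl, Nefm and Ina, the microtubule regulators Dcx, Stmn2 and Nav3, and the ubiquitin hydrolase gene Uchl1. Members were taken by gene symbol from every deposited RNA and DNA methylation table, and all 7 were found among the 12371 genes tested for expression. They were chosen by their rise after irradiation in the expression tables of these libraries, so their expression values below are a description and carry no test beyond the authors' own. The cells came from C57Bl/6 mice in a crossed design: irradiated on a high fat diet, irradiated on chow, untreated on a high fat diet and untreated on chow. Each of these 4 groups had 6 RNA libraries, 6 libraries of captured methylated DNA and 6 bisulfite libraries of satellite cells. The stromal vascular fraction of fat, a mixture of non-adipocyte cells, had bisulfite libraries only, 7, 4, 7 and 6 in the same order of groups. Of the radiation dose, the sex and age of the mice and the delay before collection, the sources used here give none, and nothing in the labels ties a library to an animal.

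Neurofilaments are the intermediate filaments of axons, built as copolymers of a light, a medium and a heavy chain, with alpha-internexin as a further subunit. Doublecortin binds and steadies microtubules, whereas stathmins hold free tubulin and favour microtubule disassembly, and both act in growing neurites. Satellite cells, the resident stem cells of skeletal muscle, are not neurons, and their own intermediate filaments are mainly of the desmin, vimentin and nestin type.

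Promoter sequence was at hand for 3 of the 7 genes, and it is shown because it sets out how differently these genes start. Each line gives the 250 bases before the RefSeq transcription start (assembly GRCm38.p6), 5′ to 3′ on the strand of the gene, with CpG dinucleotides, the units that DNA methylation acts on, in capitals.
Dcx (chrX:143933220-143933469, minus strand): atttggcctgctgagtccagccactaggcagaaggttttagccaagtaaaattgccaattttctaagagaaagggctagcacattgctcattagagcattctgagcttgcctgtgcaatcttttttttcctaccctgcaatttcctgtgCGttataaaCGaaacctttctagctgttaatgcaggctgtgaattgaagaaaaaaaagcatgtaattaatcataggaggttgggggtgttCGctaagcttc
Uchl1 (chr5:66675871-66676120, plus strand): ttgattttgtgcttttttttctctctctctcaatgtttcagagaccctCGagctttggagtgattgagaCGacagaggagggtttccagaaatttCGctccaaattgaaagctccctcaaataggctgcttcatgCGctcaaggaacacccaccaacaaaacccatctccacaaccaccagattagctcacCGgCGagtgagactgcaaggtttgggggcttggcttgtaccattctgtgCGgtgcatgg
Ina (chr19:47014431-47014680, plus strand): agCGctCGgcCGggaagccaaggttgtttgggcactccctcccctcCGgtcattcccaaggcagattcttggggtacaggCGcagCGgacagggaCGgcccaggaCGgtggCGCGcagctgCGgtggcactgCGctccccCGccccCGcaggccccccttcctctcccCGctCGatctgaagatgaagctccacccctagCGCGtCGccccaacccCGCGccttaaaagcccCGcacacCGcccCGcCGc
The Dcx window had 3 CpGs and 41.6% G and C, the Uchl1 window had 7 CpGs and 48.8%, and the Ina window had 25 CpGs and 70.8%. Over all 32851 promoter windows of the same length the median was 6 CpGs. Fewer CpGs than in Ina were found in 89.3% of windows, and fewer than in Dcx in 29.0%. The letters TATAA, searched on both strands, occurred in Dcx only, once on each strand and overlapping, and in 22.8% of all windows. The letters GGGCGG occurred 2 times in Ina, in neither of the others, and in 32.7% of all windows. CCGG, the site of the enzyme MspI around which the bisulfite libraries were built, occurred 2 times in Ina, once in Uchl1 and not in the Dcx window, against 47.1% of all windows. For Dcx the table holds 2 overlapping windows, and the one farther upstream is shown.

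Expression is known here from the authors' group comparisons alone, since the tables hold no value of a single library. A log2 fold change of 1 is a doubling in irradiated over untreated mice. The depth behind each value is unknown, and standard errors (SE) and 95% intervals were derived from the authors' likelihood ratio and are approximate. Over both diets the deposited fold change equals the sum of the effects on the 2 diets, so it is given here divided by 2, as their mean. In whole satellite cell RNA, fewer cells of a type and less RNA per cell cannot be told apart.

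All 7 genes were listed as higher after irradiation over both diets, and 6 of them passed an adjusted p under 0.05, with Uchl1 just outside. Across all tested genes 3.05% were called higher and 3.64% lower at this threshold, and 6.65% higher and 7.05% lower at the authors' listing threshold of 0.1. The mean rise was near 5-fold for Dcx, between 2-fold and 3-fold for Nefl, Stmn2 and Nefm, close to 2-fold for Nav3 and Ina, and smallest for Uchl1. The median mean log2 fold change was 1.11 over the 7 genes and 0.46 over the 823 genes listed as higher. Because the members were taken for their rise, nothing is read from this difference.

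Among the neurofilament subunits, Nefl, the light chain on which neurofilaments assemble, lies on chromosome 14 from 68083863 to 68089095 on the plus strand. Its mean log2 fold change was 1.48 ± 0.36 (SE; adjusted p = 0.00273 in the authors' deposited table), or 2.78-fold with a 95% interval of 1.72 to 4.52. Nefm, the medium chain, lies on the same chromosome from 68119283 to 68124846 on the minus strand. Its mean log2 fold change was 1.11 ± 0.29 (SE; adjusted p = 0.00832 in the authors' deposited table), or 2.15-fold with an interval of 1.45 to 3.20. The pair are neighbours, with 30187 bases between their listed transcripts, and each was the nearest listed gene of the other on the chromosome. Ina, which encodes alpha-internexin, lies on chromosome 19 from 47014698 to 47025327 on the plus strand. It rose by a mean log2 fold change of 0.89 ± 0.30 (SE; adjusted p = 0.0461 in the authors' deposited table). As a fold this was 1.85 with an interval of 1.24 to 2.78, at a mean abundance over the libraries of 0.936 CPM (read counts scaled to library size and not to gene length).

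Of the microtubule genes, Dcx, whose protein doublecortin is a marker of young migrating neurons, lies on chromosome X from 143855842 to 143933311 on the minus strand. It had a mean log2 fold change of 2.31 ± 0.37 (SE), a 4.95-fold rise with an interval of 3.0 to 8.18, and an adjusted p of 9.66e-07 in the authors' deposited table. By p-value it stood 5th among the 1695 genes listed over both diets. Stmn2, a membrane-bound stathmin of growth cones, lies on chromosome 3 from 8509360 to 8561606 on the plus strand. It had a mean log2 fold change of 1.29 ± 0.29 (SE; adjusted p = 0.00135 in the authors' deposited table). Nav3, a neuron navigator that associates with microtubule ends, lies on chromosome 10 from 109682660 to 110000219 on the minus strand. It had a mean log2 fold change of 0.99 ± 0.22 (SE; adjusted p = 0.000928 in the authors' deposited table), or 1.99-fold with an interval of 1.48 to 2.69, the narrowest on the log2 scale of the 3 microtubule genes.

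Uchl1, an abundant deubiquitinating enzyme of neurons that is not itself a filament protein, lies on chromosome 5 from 66676091 to 66687234 on the plus strand. Its mean log2 fold change was 0.42 ± 0.15 (SE), or 1.34-fold with an interval of 1.09 to 1.64. Its adjusted p of 0.0589 in the authors' deposited table missed the threshold of 0.05.

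The order of the mean log2 fold changes was Dcx, Nefl, Stmn2, Nefm, Nav3, Ina and Uchl1. Every neighbouring pair in this order had overlapping 95% intervals. The interval of Uchl1 ended at 0.71 on the log2 scale, below the lower bounds of Dcx at 1.59 and Nefl at 0.78, and about where that of Stmn2 began. The plot of fold change against abundance sets the genes among all listed ones.

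**Figure D1:**
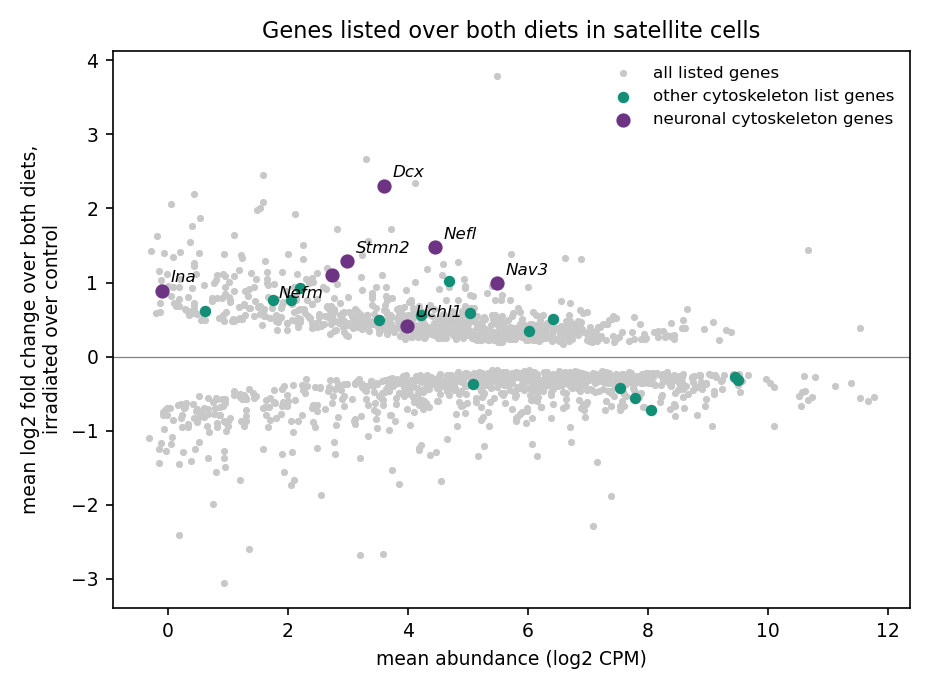
Mean log2 fold change over both diets (irradiated over control) against mean abundance in log2 CPM for the 1695 listed genes, one point each, with the neuronal cytoskeleton genes in purple and other listed cytoskeleton genes in green. All 7 purple points lie above 0, with Dcx highest at 2.31 and Uchl1 lowest at 0.42.

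The authors also compared irradiated with untreated mice within each diet. On the high fat diet, 3 of the 7 genes were called higher at an adjusted p under 0.05, against 0.0485% of all tested genes, which was 6 genes in all, and 0 of the 7 lower, against 0.0162%. At the listing threshold of 0.1 the members were the same 3, against 0.097% of all tested genes. They were Dcx at a log2 fold change of 2.48 and Nefl at 2.42 (adjusted p = 0.0131 for each) and Nefm at 1.77 (adjusted p = 0.0377), all from the authors' deposited table. By p-value, Dcx stood 1st, Nefl 3rd and Nefm 8th of the 18 genes the authors listed for this diet.

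On chow, 2 of the 7 genes were called higher, against 0.388% of all tested genes. The authors' deposited table gave Dcx a log2 fold change of 2.14 (adjusted p = 0.0133) and Stmn2 one of 1.71 (adjusted p = 0.0139). Nav3 was listed at 1.06 with an adjusted p of 0.0508 in the same deposited table, past the threshold of 0.1 that 1.01% of tested genes passed as higher. Of the 7 genes only Dcx was in the tables of both diets.

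For genes listed in 1 diet's table, the effect on the other diet was recovered by subtraction from the value over both diets. Nefl had a log2 fold change of 2.42 ± 0.52 on the high fat diet and 0.53 ± 0.49 on chow (SE). Nefm had 1.77 ± 0.42 on the high fat diet and 0.44 ± 0.41 on chow (SE). For both neurofilament chains the chow interval included 0, from -0.42 to 1.49 for Nefl and from -0.36 to 1.23 for Nefm.

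Stmn2 had 0.86 ± 0.41 on the high fat diet and 1.71 ± 0.42 on chow (SE), and both intervals lay above 0. Nav3 had 0.92 ± 0.31 on the high fat diet and 1.06 ± 0.31 on chow (SE). Dcx had 2.48 ± 0.53 on the high fat diet and 2.14 ± 0.52 on chow (SE).

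The difference between the diets, high fat diet minus chow, was 1.89 for Nefl with an interval of 0.49 to 3.28 and 1.34 for Nefm with an interval of 0.19 to 2.48. For Stmn2 it was -0.85 (interval -2.0 to 0.30), for Dcx 0.33 (interval -1.11 to 1.78) and for Nav3 -0.14 (interval -1.0 to 0.73). The sign of the difference followed the table in which the gene had been listed. Listing favours a larger value on that diet, so no conclusion is drawn from the members' differences. Over all 314 genes with an effect on both diets, the members included, an approximate normal test of the difference called 0 after Benjamini-Hochberg adjustment. The smallest adjusted p was 0.594, and 15 genes had an unadjusted p under 0.05. Nefl and Nefm were among the 15, each with an adjusted p of 0.594. Most of the 314 genes had been listed on a single diet, so the same bias holds for them. The plot by diet shows the intervals side by side.

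**Figure D2:**
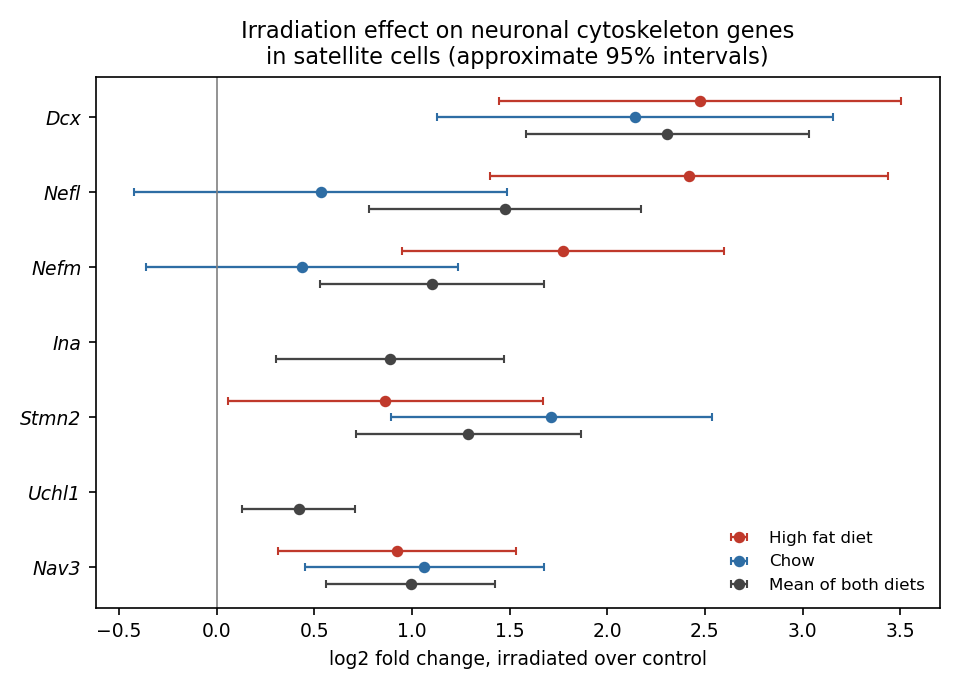
Log2 fold change (irradiated over control) on the high fat diet, on chow and as the mean of both diets, with approximate 95% intervals from the authors' likelihood ratios. Nefl and Nefm have chow intervals that include 0, Dcx stands above 2 on both diets, and Ina and Uchl1 have the mean only.

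Ina and Uchl1 were listed on neither diet. With equal errors on both diets, and given that neither gene passed the listing threshold, the Ina effect lay between 0.51 and 1.61 on the high fat diet and between 0.17 and 1.27 on chow on the log2 scale. For Uchl1 these bounds were 0.21 to 0.80 on the high fat diet and 0.042 to 0.63 on chow. The bounds assume that the fitted sum is exact and cover no error of it. None of the 7 genes was in the authors' deposited table of high fat diet against chow in irradiated mice, which held 1 gene (0.00808% of those tested, at either threshold), so a diet effect after irradiation was not called for any of them.

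The genes most like each member were taken as the 3 nearest in the pair of log2 fold changes on the 2 diets, among the 314 genes with both. Nearest to Dcx were Capn6, a calpain family member without protease activity, at 2.58 on the high fat diet and 2.09 on chow, the membrane protein gene Igsf1 at 2.43 and 1.96, and Cadps, a priming factor of dense-core vesicle release, at 2.42 and 2.47. Capn6 is also the nearest listed gene to Dcx on chromosome X, with 28427 bases between the listed transcripts. Nefl and Nefm were each among the other's nearest, at a distance of 0.65, and shared the synaptic vesicle gene Synpr, at 1.42 and 0.67, and the kinase gene Nrk, at 1.35 and 0.92. Nefl, Nefm, Synpr and Nrk were all listed on the high fat diet and not on chow, which favours a larger value on that diet. The likeness also uses values by which the members were chosen, so nothing is read from it. Around Stmn2 lay the sialomucin gene Podxl at 1.05 and 1.70, the Slit receptor gene Robo2 at 1.08 and 1.75 and the potassium channel gene Kcnb2 at 1.14 and 1.71. Around Nav3 lay the Wnt effector gene Lef1 at 0.89 and 1.0, the protease gene Bace2 at 0.85 and 1.11 and Ccdc149 at 0.81 and 1.07. The distances ran from 0.072 to 1.14, and around Dcx, Stmn2 and Nav3 they were below 0.33, less than the SE of each of these members' effects.

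Among all 123 genes with a positive effect on both diets, 11 had the larger effect on the high fat diet, and Dcx, Nefl and Nefm were 3 of these 11. Most of the 123 had been listed on chow, which favours a larger chow value. Nefl and Nefm had been listed on the high fat diet and not on chow, which favours the reverse. Nothing is therefore read from the place of the members among the 11.

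**Figure D3:**
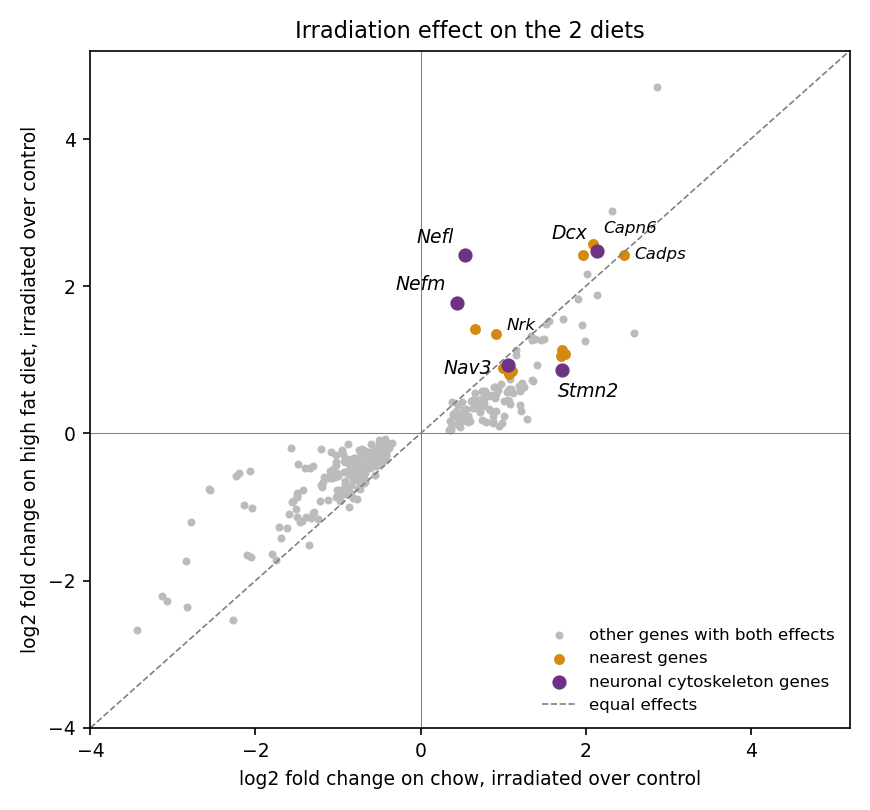
Log2 fold change (irradiated over control) on the high fat diet against chow for 314 genes with both effects, with the dashed line marking equal effects, neuronal cytoskeleton genes in purple and their nearest genes in orange. Nefl and Nefm lie far above the line, Dcx lies beside Capn6 near it, and Stmn2 lies below it.

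Other cytoskeleton and related genes were described from 9 lists with 92 symbols, none of them a member. The lists follow the gene families of the members and are not all neuronal or cytoskeletal. They include nuclear lamins, the muscle filament gene Des and ubiquitin hydrolases. Over both diets 8 were called higher and 3 lower at an adjusted p under 0.05, or 8.70% and 3.26% of the symbols, beside 3.05% higher and 3.64% lower of all tested genes. Not every symbol need have been tested, and the lists were written with earlier results known, so the shares are descriptive. The median mean log2 fold change of these 11 genes was 0.56.

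In the list that joins the doublecortin-like kinases with the collapsin response mediators, a separate family, 3 of 8 rose and 0 fell. They were Crmp1, a semaphorin signalling mediator, at 0.92 ± 0.25 (SE; adjusted p = 0.00882), its relative Dpysl4 at 0.77 ± 0.22 (SE; adjusted p = 0.0178) and the doublecortin-like kinase gene Dclk2 at 0.61 ± 0.20 (SE; adjusted p = 0.0380), with the adjusted p from the authors' deposited table. Of the stathmin and growth cone genes, 1 of 10 rose, the ubiquitous stathmin gene Stmn1 at 0.50 ± 0.15 (SE; adjusted p = 0.0182 in the authors' deposited table). Among the navigators and plus-end genes 1 of 13 rose, Nav1, a paralogue of Nav3, at 0.56 ± 0.18 (SE; adjusted p = 0.0398 in the authors' deposited table). Dclk2, Stmn1 and Nav1, relatives of Dcx, Stmn2 and Nav3 in that order, were thus among the genes that rose. Each had a smaller estimate than the member it resembles, a difference that was not tested. Other relatives in the same lists, Dclk1, Dclk3, Stmn3, Stmn4 and Nav2, were not listed over both diets, so no general rise of relatives is read from these 3 genes.

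Of the 11 motor genes 2 rose, the axonal kinesins Kif5c at 0.50 ± 0.14 and Kif1a at 0.59 ± 0.19 (SE). In the spectrin and ankyrin list the adducin gene Add2 rose by 1.02 ± 0.31 (SE) and the ankyrin gene Ank1 fell, at -0.42 ± 0.13 (SE). Of the 13 tubulins 0 rose and 2 fell, the beta-tubulins Tubb2a at -0.72 ± 0.15 and Tubb2b at -0.56 ± 0.12 (SE), and the other 11 were not called. The lists of other intermediate filaments (11 symbols), microtubule associated proteins (12 symbols) and ubiquitin C-terminal hydrolases (4 symbols) had 0 called by the authors' edgeR test. Nefh, the heavy neurofilament chain, and Prph, the peripheral neuron filament peripherin, were in the filament list and were not listed in any RNA table. A gene that is not listed was either untested or had an adjusted p of at least 0.1, so counts at an unadjusted p under 0.05 cannot be given for these lists.

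Within single diets the lists had 0 called on the high fat diet and 1 on chow, where the authors' deposited table gave Tubb2a a log2 fold change of -0.81 (adjusted p = 0.0214). That is 1.09% of the symbols lower on chow, near the 0.865% of all tested genes.

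**Figure D4:**
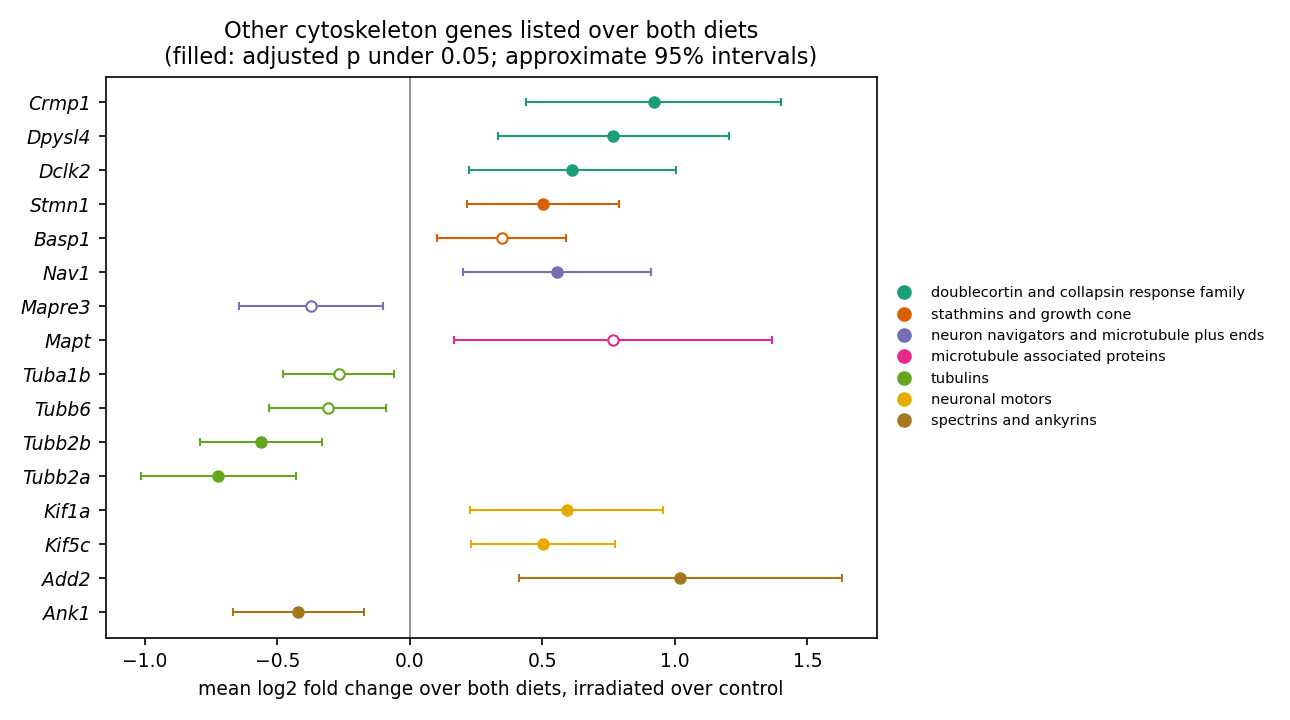
Mean log2 fold change over both diets (irradiated over control) of the other cytoskeleton genes that the authors listed, coloured by list, with approximate 95% intervals and filled points at an adjusted p under 0.05. Among the filled points Crmp1, Dpysl4, Dclk2, Stmn1, Nav1, Kif1a, Kif5c and Add2 lie above 0, and Tubb2a, Tubb2b and Ank1 lie below it.

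Markers of other cell types were counted in the same tables. Among all tested genes, 3.05% were called higher and 3.64% lower over both diets at an adjusted p under 0.05. On chow these shares were 0.388% and 0.865%, and on the high fat diet 0.0485% and 0.0162%. The marker lists are short, so the counts below are descriptive. Of 11 general neuron markers, such as Tubb3, Rbfox3, Snap25 and Syp, and with Nefh and Prph again among them, 0 were listed for irradiation on either diet or over both, and their levels are not given there. Of 10 markers of Schwann cells and glia, the myelin gene Mbp rose over both diets by a mean log2 fold change of 1.5 ± 0.31 (SE; adjusted p = 0.000375 in the authors' deposited table), at an abundance of 2.26 log2 CPM. In that list the neurotrophin receptor gene Ngfr stood at 1.30 on chow (adjusted p = 0.0838 in the authors' deposited table). Of 4 neuroendocrine markers, the secretogranin gene Scg2 rose by 0.55 ± 0.17 (SE). Of 10 genes taken here as satellite cell markers, not all particular to these cells, 0 rose and 2 fell over both diets. They were Cdh15 at -0.46 ± 0.12 and Chrna1, a muscle acetylcholine receptor gene, at -0.40 ± 0.12 (SE). Of 6 fibroblast markers 3 fell over both diets (Thy1, Col1a2 and Dcn), of 5 macrophage markers 2 fell (Mrc1 and Itgam), and of 5 endothelial markers 0 were listed over both diets and 2 fell on chow (Cdh5 and Pecam1). The part of these cell types in the rise of the neuronal cytoskeleton genes was not tested.

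DNA methylation near the members was read from the remaining tables. In satellite cell DNA pulled down on methyl-binding domain (MBD) protein, the authors listed 373 promoter regions, 84 islands and 190 shores of CpGs, and 2455 exon regions, and 0 of these carried the symbol of a member. Of the 1695 genes listed for expression over both diets, few had such regions either, 0.767% for promoters, 0.649% for islands, 1.59% for shores and 8.14% for exons, so nothing is read from the count of 0.

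Reduced representation bisulfite sequencing, which reads methylated cytosines near MspI sites, listed 1 region for the members in satellite cells. It belonged to Uchl1, in the radiation contrast, on chromosome 5 from 66676169 to 66676238, which is 48 to 117 bases downstream of the start that the methylation table gives, and past the end of the sequence printed above. Its median methylation was 8.50% in group 1 and 0.988% in group 2, a difference of 7.51 percentage points with a median p of 0.000972 in the authors' deposited table. The groups are not named in the files, so no treatment can be attached to the higher level. The difference was smaller than the median absolute difference of 13.8 points over the 9827 regions listed in that contrast. Of these regions 46.8% had a smaller absolute difference, and 93.2% had a smaller p. Of the 1695 genes listed for expression over both diets, 30.9% had a region in this contrast, as had 1 of the 7 members. No member had a region in the diet contrast of satellite cells, where 30.7% of those genes had one, or in the interaction contrast, where 5.96% had one.

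In the stromal vascular fraction the 2 neurofilament chains had a region each in the diet contrast. These were 2 of the 7 members, beside 31.5% of the 1695 genes listed for expression, and 0 members had a region in the radiation contrast (22.9% of those genes) or the interaction contrast (7.43%). Distances are from the gene starts in the methylation table, 68083884 for Nefl and 68125004 for Nefm, which differ from the transcript ends of the expression tables given above. For Nefl it was a single position on chromosome 14 at 68084492, 608 bases downstream of that start, at 1.07% in group 1 and 0.0472% in group 2, a difference of 1.02 points. For Nefm it ran from 68125049 to 68125052, 45 to 48 bases upstream of that start, at 0.692% in group 1 and 0.0124% in group 2, a difference of 0.68 points. Both regions were nearly unmethylated in both groups, and their differences were small beside the median absolute difference of 17.2 points over the 7997 regions of that contrast, all from the authors' deposited table. Of those regions, 27.1% had a smaller absolute difference than the Nefl region and 23.8% a smaller one than the Nefm region. Here too the groups are not named, and expression was not measured in this fraction.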

How the data were processed

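Satellite cells and the stromal vascular fraction were profiled in 96 samples, and 14 tables of the authors' comparisons were used, with 0 columns of single samples. Per the submitters' processing notes the build was mm10 and RNA was processed with Trim Galore 0.4.0, TopHat2, featureCounts and edgeR, captured DNA with Trimmomatic, Bowtie2, Picard, featureCounts and edgeR, and bisulfite libraries with Bismark 0.14.4 and Bowtie2 2.2.6. Ribosomal RNA was removed before stranded library construction, per the labels' protocols. Per the file headers the RNA tables give a log2 fold change, a mean log2 CPM, a likelihood ratio score, a p-value and an adjusted p. The deposited MBD columns were read as a log2 fold change, a mean log2 CPM, a likelihood ratio and an unadjusted p-value. Notes stand below the regions. Those notes were not read. Deposited bisulfite values were read as median methylation levels and differences, here multiplied to percent, with a median p-value.

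The 12371 tested genes were recovered from adjusted p, rank and p-value. For 13 genes in all 3 irradiation tables the value over both diets equalled the sum of the diets' effects (largest deviation 3.11e-15). Standard errors are the absolute log2 fold change over the square root of the likelihood ratio. For the same genes, the error over both diets was 0.999 to 1.0 times that from both diets' tables. Bounds used the smallest listed likelihood ratio and equal errors on both diets (median observed ratio 0.708, with 0.707 for equality). Differences between diets were adjusted by Benjamini-Hochberg over 314 genes, and the arithmetic was checked on simulated effects with known errors. That simulation held no counts, so it cannot check how close the approximate errors are or how strong the listing bias is. Named were all members, list genes at an adjusted p under 0.05 and the 3 nearest genes of each member with effects on both diets. Members and lists were chosen with earlier results of these data known. The labels do not tie samples to separate animals, so the spread behind a p-value may be technical. A count model foreseen in the design was not fitted, as no counts of single samples were used. Calculations used Python 3.11.15, pandas 2.3.3 and scipy 1.17.1. Alternatives concerned thresholds, symbol matching, error formulas and region filters.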

Additional observations from a re-analysis of the deposited data

How the results depend on the processing

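Of 65 alternative values, 58 stayed within the limits set for them and 7 moved. Filters on a region count that was already 0 could only leave it at 0, and these are among the 58. The 58 are thus no measure of stability. At an adjusted p under 0.01 the members called higher were 0 on the high fat diet, 0 on chow and 5 over both diets, against 3, 2 and 6 at 0.05. The share of all tested genes at 0.01 was not counted. As the members were chosen for their rise, nothing is read from these counts. At 0.1 the cytoskeleton list genes were 1 higher and 2 lower on chow (1.09% and 2.17%, beside 1.01% and 1.59% of all tested genes), and 10 higher and 6 lower over both diets (10.9% and 6.52%, beside 6.65% and 7.05%). Requiring a methylation difference of at least 10 percentage points left 0 regions for Uchl1 in satellite cells and 0 for the neurofilament genes in the stromal vascular fraction. Errors taken from the p-values are the same numbers as those from the likelihood ratios by construction, so that alternative tells nothing of stability. Unequal errors on the 2 diets left every bound for Ina and Uchl1 above 0. These bounds too take the fitted sum as exact, so no rise on either diet is read from them. No paired analysis was possible because the tables hold no columns of single samples, and for the same reason no library could be left out, no other normalization tried and no depth given.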

Other observations

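In the MBD table of gene exons, 8 of the 92 cytoskeleton list symbols (8.70%) had listed regions, beside 8.14% of the 1695 genes listed for expression over both diets. The sides of the contrast are not named in the headers and regions that were read, so directions are as coded in the authors' deposited table. The log2 fold change was below 0 for 5 of the 8 genes, Tubb2a at -0.60, Bap1 at -0.36, Tuba8 at -0.35, Clip1 at -0.29 and Ank3 at -0.33 to -0.29 over 7 regions, most of them overlapping. It was above 0 for Vim at 0.88, Uchl3 at 0.86 and Dclk1 at 0.84. Over all listed regions of that class 66.2% were above 0.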
